A study of Mus musculus with 6 samples.

Results

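The mitochondrial chromosome of the mouse encodes 37 transcripts, and all 37 were found among the 39174 gene rows of the tested expression table by the prefix mt- in their names. They were 13 mRNAs, 2 rRNAs and 22 tRNAs, and each lay on chromosome M of build mm10 in the GENCODE M21 annotation. The RNA came from MLO-Y4, an established line of osteocyte-like cells from mouse long bone, grown on collagen-coated glass. In the flow group, 3 cultures received 2 h of oscillating fluid flow at 10 dyn/cm2 in a parallel-plate chamber and were lysed after 2 h more in fresh medium. In the non-flow control group, 3 cultures were sham-treated in parallel. The triplicates were collected on separate days, so each group holds 3 cultures of 1 line, and the comparison asks which transcripts flow regulates at this time.

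Mitochondrial DNA is a small circle that is transcribed from both strands into long precursor RNAs. A dedicated RNA polymerase, POLRMT, makes these with the factors TFAM and TFB2M, and most mRNAs and rRNAs are released when the tRNAs that lie between them are cut out. The mRNAs encode core subunits of respiratory complexes I, III, IV and V, and the rRNAs and tRNAs serve the ribosomes that translate these mRNAs inside the organelle. Osteocytes are the cells within bone matrix that sense fluid movement, and MLO-Y4 cells are widely used as their model in culture.

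No mitochondrial transcript passed the test between flow and control cells. All 12 mRNAs that passed the filter on low values had a positive difference, with a median of 0.26 on the log2 scale that was -0.02 after correction for GC content, when 8 of the 12 were below 0. Their libraries overlapped between groups in all but mt-Nd3, a subunit of complex I, while 7.12% of all genes tested had every flow value above every control. Its mean was 931 ± 112 FPKM (SD, n = 3) in control and 1700 ± 394 FPKM (SD, n = 3) in flow cells, where FPKM is the number of fragments scaled to transcript length and library depth. Among the tRNAs, mt-Tm alone had no overlap between groups in the tested table, on very few reads.

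The sequences below are from the GENCODE M21 transcripts (mm10), written 5′ to 3′ in DNA letters, and show the members on which these results turn. mt-Nd3 occupies chrM:9459-9806 on the plus strand. Its first 150 bases (chrM:9459-9608) are shown, and the capital, the last base of the start codon, is the only one of 345 aligned bases of the gene that differs from a nuclear copy, Gm28438 on chromosome 1.
mt-Nd3: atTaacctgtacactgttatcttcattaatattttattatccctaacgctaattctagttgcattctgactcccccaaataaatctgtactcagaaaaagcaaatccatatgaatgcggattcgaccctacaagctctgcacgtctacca
In the others, capitals mark bases that the annotation shares with a neighbouring mitochondrial gene. mt-Atp8, at chrM:7766-7969 on the plus strand, is the shortest mRNA and shares 43 of its 204 bases with mt-Atp6.
mt-Atp8: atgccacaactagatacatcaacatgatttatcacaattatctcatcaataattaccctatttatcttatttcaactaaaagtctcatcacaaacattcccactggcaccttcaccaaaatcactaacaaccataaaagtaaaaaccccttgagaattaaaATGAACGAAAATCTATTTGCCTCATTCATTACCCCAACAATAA
The tRNAs shown are the one with the highest level in the tested table, that for glutamate (mt-Te, chrM:14071-14139, minus strand), the one without overlap between groups, that for methionine (mt-Tm, chrM:3845-3913, plus strand), and one of the serine tRNAs (mt-Ts1, chrM:6870-6938, minus strand), whose 3 last bases lie opposite the end of mt-Co1.
mt-Te: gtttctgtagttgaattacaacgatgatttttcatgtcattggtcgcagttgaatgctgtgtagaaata
mt-Tm: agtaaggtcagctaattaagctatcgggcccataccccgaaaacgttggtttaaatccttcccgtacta
mt-Ts1: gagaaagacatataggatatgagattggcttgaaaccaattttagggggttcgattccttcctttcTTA
Lengths among the 22 tRNAs ran from 59 nt (mt-Ts2, the other serine tRNA) to 75 nt (mt-Tl1, one of the leucine tRNAs). All lie well below 200 nt, the set value that was subtracted from transcript lengths to read the depth of the libraries. Other values were not tried.
mt-Ts2: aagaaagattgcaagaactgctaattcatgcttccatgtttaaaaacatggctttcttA
mt-Tl1: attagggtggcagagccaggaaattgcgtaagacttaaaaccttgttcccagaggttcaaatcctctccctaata

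Low FPKM values fall on steps, and the depth that these give was 17910000 to 19010000 reads in the controls. In flow libraries 1 to 3 it was 11020000, 5750000 and 19230000 reads, which makes flow 1 and flow 2 the shallowest. An effective length of 1 kb with 3 reads had 0.156 to 0.521 FPKM, a limit that covers counting error only. Of the 7 osteocyte markers, Pdpn, Gja1 and Phex had a mean of at least 1 FPKM, Sost, Mepe and Fgf23 were listed at 0 in all 6 libraries, and Dmp1 did not exceed 0.0354 FPKM. Osteoblast markers reached that mean for 5 of 7 genes, leukocyte and macrophage markers for 1 of 4 (Cd68), endothelial markers for 0 of 3 and adipocyte markers for 1 of 2 (Fabp4). Differences below are flow minus control on the log2(FPKM + 1) scale from a limma fit over 11957 genes, of which 2 (0.0167%) had an adjusted p under 0.05.

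Measured per length, the mitochondrial mRNAs were among the most abundant RNAs of these cells. Together they made up 7.60%, 5.24% and 5.20% of all FPKM in controls 1 to 3, and 9.57%, 6.66% and 5.86% in flow 1 to 3. Control 1 lay above flow 2 and flow 3, so the groups overlapped. Each flow library was nevertheless above the control of the same number, whose library title is adjacent. The labels do not give which cultures share a day. The means were 6.01 ± 1.37% (SD, n = 3) in control and 7.36 ± 1.95% (SD, n = 3) in flow cells. A two-sided exact permutation test without pairing gave p = 0.5, where 3 against 3 libraries cannot go below 0.1. All FPKM include those of the tRNAs. Set against nuclear protein-coding FPKM, the mRNAs stood at 10.33%, 6.785% and 6.579% in controls 1 to 3. In flow 1 to 3 they stood at 13.71%, 8.896% and 7.52%. With FPKM multiplied by length, their share was 1.202% to 2.494% over the 6 libraries. In bulk RNA, more mitochondrial RNA per cell and more cells rich in it cannot be told apart.

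The order of the mRNAs was steady at the top. mt-Atp8, mt-Atp6, mt-Co3, mt-Co2 and mt-Co1 held ranks 1 to 5 in this order in all 6 libraries, with means over the libraries of 25620, 6014, 3638, 2965 and 2776 FPKM. mt-Nd1 (1896 FPKM), mt-Cytb (1694 FPKM) and mt-Nd6 (1636 FPKM) followed and exchanged places between ranks 6 and 9. mt-Nd3 (1315 FPKM), mt-Nd4 (1218 FPKM), mt-Nd2 (1079 FPKM) and mt-Nd5 (810.9 FPKM) came last among the mRNAs that passed the filter. Within this last set mt-Nd3 ranged from rank 12 in control 1 to rank 7 in flow 2, while mt-Nd5 stayed at rank 11 or 12. Between its lowest and highest library each mRNA varied by 1.86 to 2.64 times, more than the step in mean from mt-Co3 to mt-Co2 or from any later mRNA to the next. Neighbours that exchanged ranks, mt-Nd1 with mt-Cytb and mt-Nd6, and mt-Nd3 with those around it, were not told apart.

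**Figure D1:**
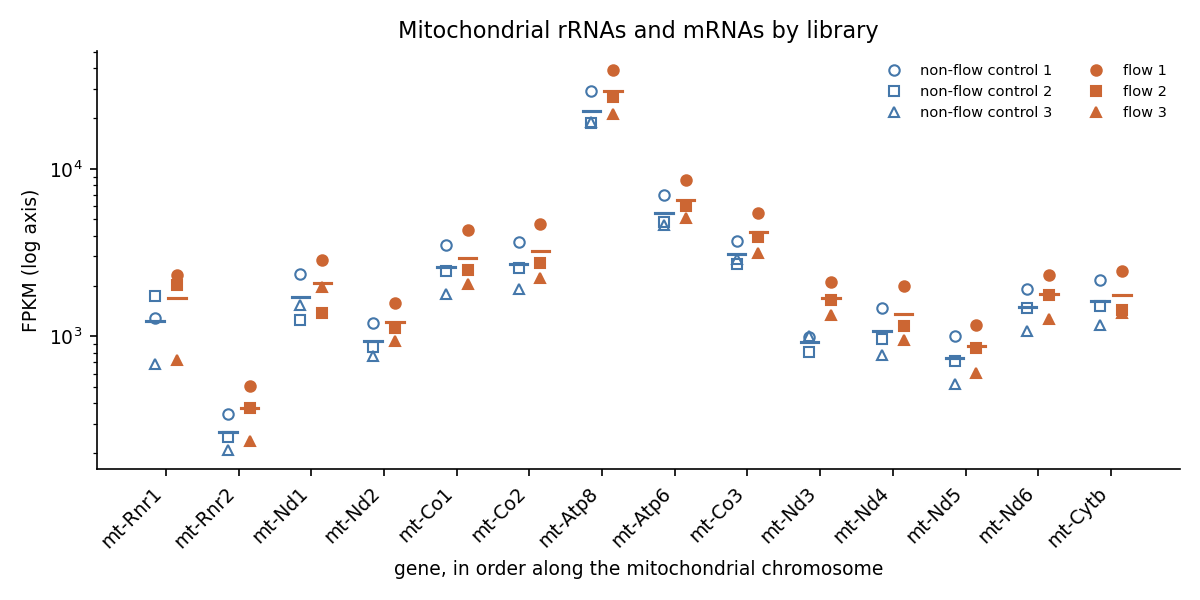
FPKM on a log axis of the 2 rRNAs and the 12 mRNAs that passed the filter, in order along the chromosome; open blue symbols are non-flow controls 1 to 3, filled orange symbols flow 1 to 3, and bars are group means. Flow 1 is the highest library for all 12 mRNAs, and only mt-Nd3 has all 3 flow values above all 3 controls.

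The mRNAs of complex V had the highest levels per length. mt-Atp8, a small subunit of the membrane part of ATP synthase, stood at 29124, 18656 and 19052 FPKM in controls 1 to 3 and at 39029, 26678 and 21175 FPKM in flow 1 to 3. Control 1 exceeded flow 2 and flow 3. mt-Atp6, the subunit that forms the proton channel of the enzyme, is read from the same RNA and had 6974, 4823 and 4609 FPKM in controls against 8568, 6013 and 5096 FPKM in flow cells. Here too control 1 was above flow 2 and flow 3. The log2 difference was 0.36 (SE 0.28, adjusted p = 0.633) for mt-Atp8 and 0.25 (SE 0.25, adjusted p = 0.672) for mt-Atp6. mt-Atp8 alone took 48.1% to 52.1% of the summed mitochondrial mRNA FPKM. At 204 nt it is close to the 200 nt above. With that setting little of its length counts as effective, so its level per length was not read as an abundance. Without it the mRNAs made up 3.79%, 2.72% and 2.53% of all FPKM in controls and 4.69%, 3.19% and 2.92% in flow cells.

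The mRNAs of complex IV, cytochrome c oxidase, encode its catalytic core. mt-Co1, which binds the heme and copper site where oxygen is reduced, had 3534, 2464 and 1791 FPKM in controls and 4319, 2500 and 2045 FPKM in flow cells. mt-Co2, which takes electrons from cytochrome c, had 3657, 2544 and 1914 FPKM in controls and 4696, 2750 and 2229 FPKM in flow cells. Both were ordered alike, with flow 1 and control 1 highest and control 3 lowest. mt-Co3, a structural subunit of the core, had 3712, 2694 and 2889 FPKM in controls and 5453, 3936 and 3147 FPKM in flow cells. Its flow 1 and flow 2 values were above all controls, and flow 3 was below control 1. The log2 differences were 0.17 (SE 0.35, adjusted p = 0.853) for mt-Co1, 0.23 (SE 0.34, adjusted p = 0.786) for mt-Co2 and 0.41 (SE 0.23, adjusted p = 0.564) for mt-Co3.

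Complex III takes a single mitochondrial product. mt-Cytb, its cytochrome b subunit, had 2182, 1522 and 1171 FPKM in controls and 2462, 1442 and 1383 FPKM in flow cells. Flow 2 and flow 3 lay within the range of the controls, and the log2 difference of 0.11 (SE 0.31, adjusted p = 0.891) was the smallest among the mRNAs.

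Complex I, NADH dehydrogenase, takes the most mitochondrial products, and 7 of the 13 mRNAs are its subunits in the membrane arm. mt-Nd3, which contributes to the loop near the quinone site, had 985.3, 801.7 and 1006 FPKM in controls 1 to 3. In flow 1 to 3 it had 2116, 1649 and 1334 FPKM. Every flow value lay above every control value, as was so for 7.12% of all genes tested. The log2 difference was 0.85 with an SE of 0.19 (unadjusted p = 0.00381, adjusted p = 0.559). At 348 nt and 33.0% GC, mt-Nd3 was next after mt-Atp8 in shortness and in low GC content among the mRNAs that passed the filter. The dependence of its difference on fragment length was not tested. Unadjusted p-values under 0.05 with a higher level in flow were found for 3.7% of the genes tested, and mt-Nd3 was the only mRNA of the mitochondrion among them. In the other deposited table, made from shallower data of the same study, mt-Nd3 had 807.8, 749.9 and 928.9 FPKM in controls. Its flow values there were 1936 FPKM in flow 1 and 1438 and 1277 FPKM in the 2 flow columns whose names match no library title, again with no overlap. Of the genes tested there, 0.0252% were called, and 0 of the mRNAs were among them. mt-Nd3 was again the only mRNA without overlap. It repeats the same experiment and is no independent evidence.

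The remaining subunits of complex I overlapped between groups. mt-Nd1, next to the quinone site, had 2362, 1253 and 1549 FPKM in controls and 2840, 1388 and 1982 FPKM in flow cells. Control 2 and flow 2 were lowest in their groups, and for no other mRNA that passed the filter was flow 2 the lowest flow library. The proton-pumping subunits mt-Nd2, mt-Nd4 and mt-Nd5 kept control 3 as their lowest library. Their values were 1205, 861.5 and 762.3 FPKM in controls and 1586, 1122 and 934.9 FPKM in flow cells for mt-Nd2. For mt-Nd4 they were 1484, 965.9 and 769.4 FPKM in controls and 1986, 1155 and 946.2 FPKM in flow cells. mt-Nd5 stood at 1007, 711.7 and 519.6 FPKM in controls and at 1172, 854.5 and 600.9 FPKM in flow cells. In each of these, control 1 exceeded flow 2 and flow 3. The log2 differences of mt-Nd1, mt-Nd2, mt-Nd4 and mt-Nd5 were 0.26 (SE 0.33), 0.36 (SE 0.25), 0.33 (SE 0.35) and 0.23 (SE 0.32), with adjusted p-values of 0.751, 0.613, 0.699 and 0.771.

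mt-Nd6, the only mRNA encoded on the minus strand, had 1907, 1487 and 1075 FPKM in controls and 2323, 1758 and 1267 FPKM in flow cells. Its order among libraries was that of the plus-strand mt-Co1, mt-Co2, mt-Atp6, mt-Nd2, mt-Nd4, mt-Nd5 and mt-Cytb at both ends, with flow 1 highest and control 3 lowest. The log2 difference was 0.25 (SE 0.29, adjusted p = 0.718). The gene shares 14 bases (chrM:13552-13565) with mt-Nd5 on the opposite strand. Because the use of strand in counting is not given in the sources used here, reads of mt-Nd6 cannot be told apart from reads of the plus-strand precursor over the same bases.

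mt-Nd4l was the one mRNA that failed the filter. This complex I subunit was listed at 0 in 5 libraries and at 0.923 FPKM in flow 1, although it lies on the same RNA as mt-Nd4 (chrM:10167-11544), overlaps it by 7 bases and is 297 nt long. A nuclear gene model, Gm10222 (chromosome 1, 24612407 to 24612700, minus strand), is identical to it over 294 of 294 aligned bases, and the tested table listed Gm10222 at 0.567, 0 and 0 FPKM in controls and at 0.923, 0 and 0.527 FPKM in flow cells. In flow 1 both rows held the same value. Neither row held the level of the neighbouring mt-Nd4, and reads that match both places cannot be assigned to one of them, so the abundance of mt-Nd4l is uncertain.

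Copies of other members lie beside Gm10222 on chromosome 1. There mt-Co2, mt-Atp6, mt-Co3 and mt-Nd4 have models identical over 681, 678, 783 and 876 aligned bases, and mt-Nd3 and mt-Co1 have models identical over 99.71% of 345 and 99.793% of 483 bases. By gene identifier these models have no row in either deposited table, whereas Gm10222 has a row in both. mt-Nd4l, the member that Gm10222 copies, failed the filter, while the members named here passed it. A link between these was not tested. The less similar copies of mt-Co1, mt-Co2, mt-Nd2 and mt-Nd5 on chromosomes 2 and 13, at 95.178% to 97.605% identity, had at most 5.92 FPKM. The deposited values of mt-Co1, mt-Co2, mt-Atp6, mt-Co3, mt-Nd3 and mt-Nd4 therefore rest on how the authors' pipeline placed reads that match 2 sites.

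Across the 12 mRNAs that passed the filter, 12 differences were above 0, against 48.3% of all genes tested. Their median was 0.26 and that of all genes was -0.01. The members come from shared precursors and are not independent of each other. Flow 1 was the highest library for 12 of 12, control 3 the lowest for 8 and control 2 for 4. Control 1 was above flow 3 for 11 of 12 and above flow 2 for 10. Against the control of the adjacent library title, flow was higher in all 3 cases for 11 of the 12 mRNAs, and for 18.9% of all genes tested. Flow 3 was above control 3 for 12 of 12 mRNAs, and for 48.4% of all genes tested. With flow 1 left out the median was 0.03. When flow 1 and flow 2, the shallow libraries, were both left out, flow 3 alone stood against the 3 controls together, and the median was -0.10.

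After a correction for base composition the differences of the mRNAs were lower. The GC content of the mRNAs that passed the filter had a median of 36.5%, against 49.6% for the nuclear protein-coding genes tested, and 0.804% of the latter were at or below that median. After each library was corrected for a smooth trend on GC content, the median difference of the mRNAs was -0.02. That trend was read near the low end of GC content, where few nuclear genes lie. With the correction mt-Nd3 had a log2 difference of 0.49 (adjusted p = 0.739). The differences of mt-Nd1, mt-Co1, mt-Co2, mt-Atp8, mt-Atp6, mt-Nd5, mt-Nd6 and mt-Cytb were below 0 with the correction, at -0.12 to -0.0064. Other scalings left the median at 0.23 (quantile normalization) and 0.26 (equal sums over nuclear protein-coding genes). Whether base composition accounts for the difference was not tested.

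**Figure D2:**
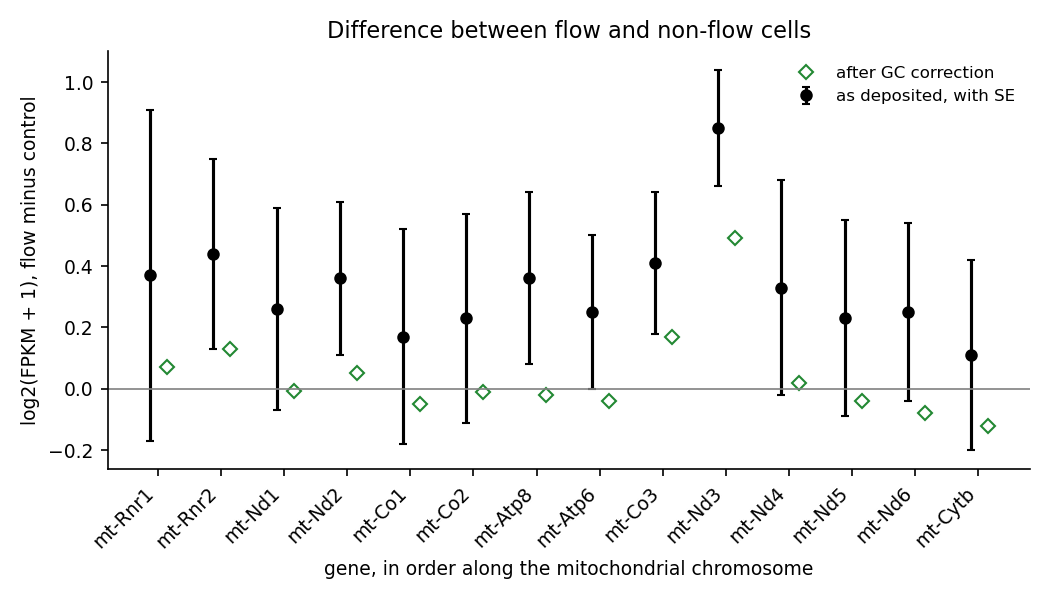
Log2 difference between flow and control, on the log2(FPKM + 1) scale, of the rRNAs and mRNAs in order along the chromosome; filled circles with bars are the deposited values with their standard error, and open diamonds the values after GC correction. mt-Nd3 has the largest difference in both, at 0.85 and 0.49, and the median of the mRNAs goes from 0.26 to -0.02.

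Shares within the mitochondrial mRNAs do not depend on the level that all members have in common. Without mt-Atp8, mt-Nd3 made up 3.40%, 3.98% and 5.57% of the summed mitochondrial mRNA FPKM in controls 1 to 3. In flow 1 to 3 it made up 5.64%, 6.71% and 6.36%. The groups did not overlap, although flow 1 and control 3 lay close together, and the mean share was 4.32% in control and 6.24% in flow cells. With mt-Atp8 in the sum, the log2 ratio of flow to control shares was 0.50 for mt-Nd3 and ran from -0.22 (mt-Cytb) to 0.08 (mt-Co3) for the other 11 mRNAs, each of which overlapped. Since mt-Nd3 had been singled out by its level in the same libraries, its share is given as a description.

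**Figure D3:**
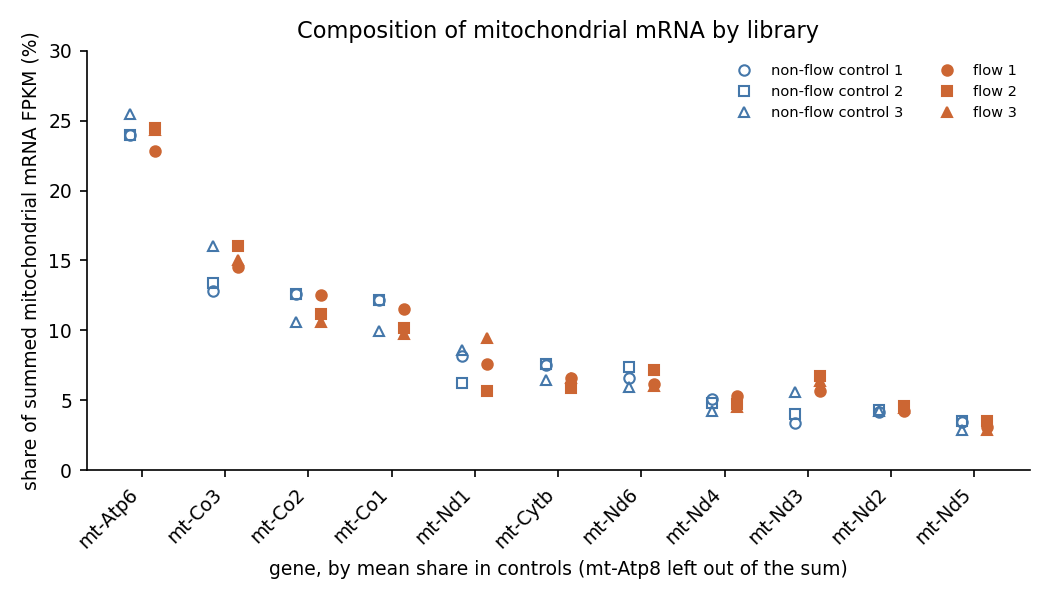
Share of each mRNA in the summed mitochondrial mRNA FPKM of its library, in percent, with mt-Atp8 left out of the sum; open blue symbols are non-flow controls and filled orange symbols flow libraries. mt-Atp6 holds 22.8% to 25.5% in all 6 libraries, and mt-Nd3 goes from 3.40% to 5.57% in controls and from 5.64% to 6.71% in flow cells.

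The rRNAs of the mitochondrial ribosome overlapped between groups. mt-Rnr1, the rRNA of the small subunit (chrM:70-1024), had 1294, 1747 and 681.8 FPKM in controls and 2313, 2019 and 719.7 FPKM in flow cells. Control 3 and flow 3 were alike low, at less than the other 4 libraries. mt-Rnr2, the rRNA of the large subunit (chrM:1094-2675), had 346.2, 249.8 and 209.4 FPKM in controls and 505.9, 375.5 and 238.4 FPKM in flow cells. Flow 3 was here below control 1 and control 2. The log2 differences were 0.37 (SE 0.54, adjusted p = 0.778) and 0.44 (SE 0.31, adjusted p = 0.615), with a median of 0.41. With flow 1 and flow 2 left out this median was -0.41, although flow 3 was above control 3 for both rRNAs.

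Both rRNAs are cut from one precursor, and mt-Rnr2 was the lower of the pair in all 6 libraries. The ratio of mt-Rnr2 to mt-Rnr1 was 0.268, 0.143 and 0.307 in controls and 0.219, 0.186 and 0.331 in flow cells (two-sided exact permutation test, p = 1.0). Libraries 3 of both groups had the highest ratios. The rRNAs together made up 0.214%, 0.270% and 0.125% of all FPKM in controls and 0.352%, 0.311% and 0.133% in flow cells (two-sided exact permutation test, p = 0.4). How the library kit selected RNA is not given in the sources used here, and rRNA levels depend on it.

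Values of the tRNAs were coarse. Among the tRNAs of 69 nt, deposited values were whole multiples of a step, within 0.02 of a whole number, and the step was 129.2, 122.1 and 116.1 FPKM in controls 1 to 3 and 232.0, 444.4 and 114.8 FPKM in flow 1 to 3. A step stands for 1 read or for a whole number of reads, and it was largest in flow 2, the shallowest library. A step was thus worth far more than the 0.156 to 0.521 FPKM of 3 reads on 1 kb, and tRNA levels were not set against mRNA levels.

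Of the 22 tRNAs, 9 were above 0 in all 6 libraries. These were mt-Tl1, mt-Tq, mt-Tm, mt-Ta, mt-Tc, mt-Tg, mt-Th, mt-Te and mt-Tp, which carry leucine, glutamine, methionine, alanine, cysteine, glycine, histidine, glutamate and proline. Listed at 0 in all 6 libraries were 5, namely mt-Tw, mt-Tn, mt-Ty, mt-Ts1 and mt-Td, for tryptophan, asparagine, tyrosine, serine and aspartate. The other 8, mt-Tf, mt-Tv, mt-Ti, mt-Tk, mt-Tr, mt-Ts2, mt-Tl2 and mt-Tt, were listed at 0 in 1 to 5 libraries. The filter was passed by 17 tRNAs, and 0 of these had an adjusted p under 0.05 in limma, while 1 (mt-Tm) had an unadjusted p under 0.05 with a higher level in flow, as had 3.7% of all genes tested.

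mt-Te had the highest level of any tRNA in the tested table. It stood at 16542, 11112 and 9757 FPKM in controls, or 128, 91 and 84 steps. In flow cells it stood at 39446, 23109 and 14235 FPKM, or 170, 52 and 124 steps. Flow 3 was below control 1, and the log2 difference was 0.95 (SE 0.39, adjusted p = 0.559). In the other table all 3 flow values of mt-Te were above all 3 controls, as for 6.65% of the genes tested there. It had 10629, 14829 and 11326 FPKM in controls and 29754, 19704 and 22068 FPKM in flow cells. There mt-Tq was also without overlap, with 0, 458.6 and 891.6 FPKM in controls and 3666, 2999 and 1308 FPKM in flow cells. Its 0 was in control 1, a library of 690000 reads, and in the tested table it overlapped.

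mt-Tm, which serves both initiation and elongation in mitochondria, had 129.2, 122.1 and 116.1 FPKM in controls, and each of these is 1 step. In flow 1 to 3 it had 1392, 888.8 and 344.4 FPKM, or 6, 2 and 3 steps. The groups did not overlap, as for 7.12% of all genes tested, and the log2 difference was 2.61 (SE 0.48, unadjusted p = 0.00145, adjusted p = 0.559). In the other table it was listed at 0 in the 3 controls and at 1417, 579.5 and 1003 FPKM in flow cells. Control 1 there had a depth of 690000 reads. Its lowest tRNA value above 0 was 4127 FPKM (mt-Ty), so a 0 in it cannot be set below these flow values. With 1 step in every control of the tested table, the size of the log2 difference is not determined by the data.

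Levels of the tRNAs differed by strand, which is given as a description. Of the 8 on the minus strand, 5 had a mean of at least 1000 FPKM and the other 3 were listed at 0 throughout. Of the 14 on the plus strand, 3 reached that mean, namely mt-Tl1, mt-Th and mt-Ts2 by their means over the 6 libraries. The median of the means was 2370 FPKM on the minus strand and 454.0 FPKM on the plus strand. In the other table all 8 minus-strand tRNAs and 4 plus-strand tRNAs had a mean of at least 1000 FPKM. Since both strands of every tRNA gene are transcribed as part of a precursor and strand use is not given, these rows may hold reads of either strand.

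The deposited tables disagreed on which tRNAs were present. Control 1 of the other table had a depth of 690000 reads, against 3610000 to 4720000 in its other libraries. There mt-Tq, mt-Ta, mt-Tc, mt-Th and mt-Tp were listed at 0 in control 1 alone. All 5 tRNAs listed at 0 throughout the tested table were above 0 in some library of the other, and mt-Ty and mt-Ts1 were so in all 6. mt-Ts1 had 56686, 33894 and 37067 FPKM there in controls and 186318, 80554 and 48651 FPKM in flow cells, the highest value of any member. mt-Ti, above 0 in 4 libraries of the tested table, was listed at 0 in all 6 of the other. In the tested table mt-Ts1 is given under a locus shared with mt-Co1 and mt-Ti under one shared with mt-Nd1, as 16 of the 37 members share a locus there, whereas in the other table each of the 37 members has its own. mt-Tn, mt-Ty and mt-Td, also listed at 0 throughout, have a locus of their own in both tables, so a shared locus does not go with all such zeros. The sum over tRNAs had a two-sided exact permutation p of 0.3 in the tested table and of 0.1, the smallest possible, in the other. In that other table mt-Ts1 held 186318 of the 273200 FPKM in flow 1 and 56686 of the 86750 FPKM in control 1. On its own mt-Ts1 overlapped between groups there.

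**Figure D4:**
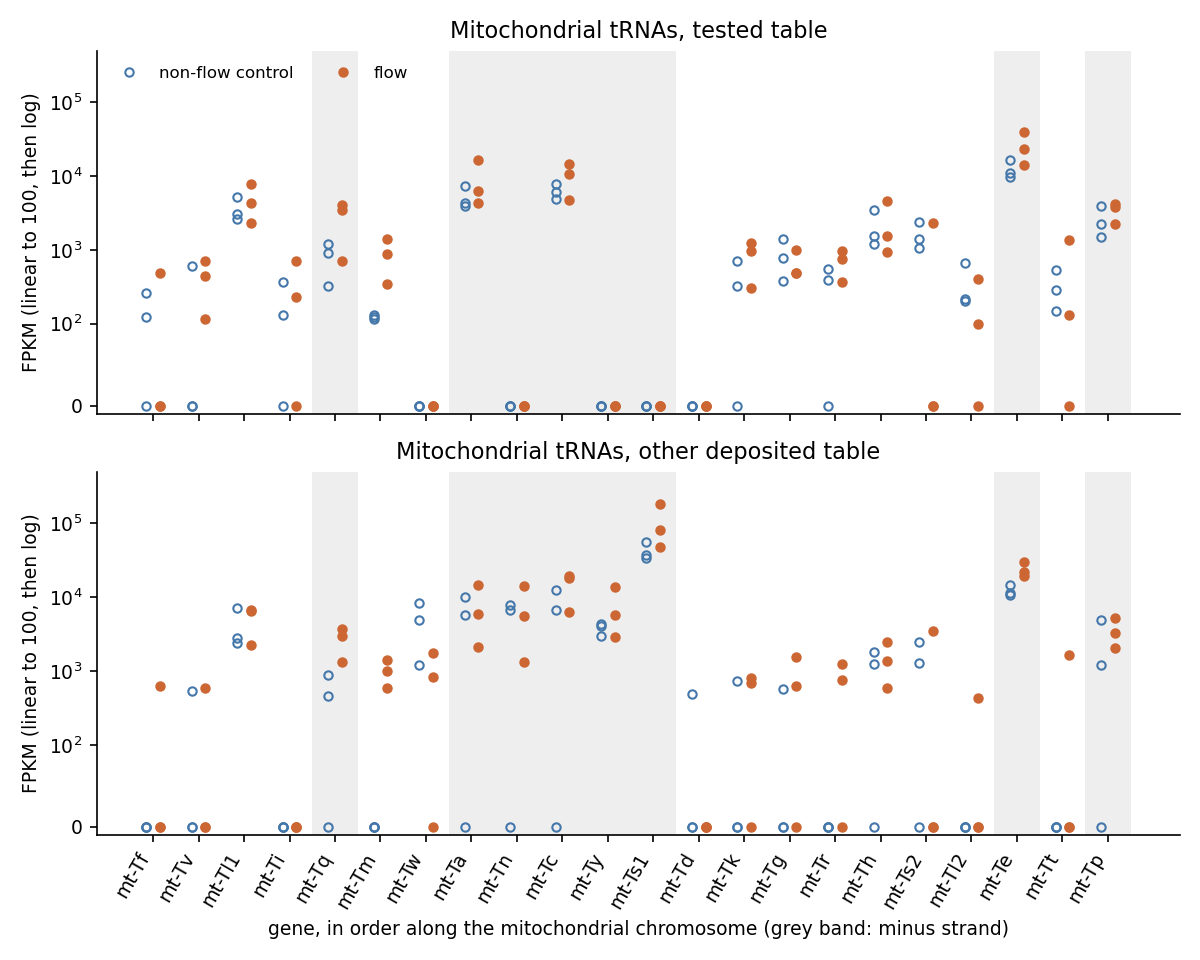
FPKM of the 22 tRNAs in the tested table (top) and the other deposited table (bottom), on an axis that is linear up to 100 FPKM and logarithmic above; open circles are non-flow controls, filled circles flow libraries, and grey bands mark tRNAs on the minus strand. mt-Tw, mt-Tn, mt-Ty, mt-Ts1 and mt-Td sit at 0 in the top panel, and mt-Ts1 is the highest tRNA in the bottom panel.

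The nuclear genes that make, process and translate these RNAs had no called member in any of 6 lists. At an unadjusted p under 0.05, 3.7% of all genes were higher and 4.82% lower in flow. Of the 11 transcription genes measured, 9 were tested, 7 had a positive difference and 0 had an unadjusted p under 0.05. The median was 0.16, and 0.10 after GC correction. Polrmt, the polymerase, had 30.5 ± 1.46 FPKM (SD, n = 3) in control and 32.1 ± 1.83 FPKM (SD, n = 3) in flow cells. Tfam, which packages mitochondrial DNA and opens its promoters, had 83.3 ± 2.90 and 97.3 ± 18.0 FPKM (SD, n = 3 each), and Tfb2m, the promoter-melting factor, 3.01 ± 0.354 and 3.52 ± 0.713 FPKM (SD, n = 3 each). Both overlapped between groups. The elongation factor Tefm had 6.44, 8.06 and 7.75 FPKM in controls and 8.46, 8.95 and 9.38 FPKM in flow cells, without overlap (log2 difference 0.24, SE 0.12, adjusted p = 0.559). Tfb1m, which methylates mt-Rnr1, and Mterfd1, a transcription terminator family member now called Mterf3, were likewise higher in every flow library, so 3 of the 9 had no overlap, against 7.12% of all genes.

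RNA processing and stability genes numbered 23, all tested, with 17 positive differences and a median of 0.10, or 0.02 after GC correction. An unadjusted p under 0.05 was found for 1 higher (Mtpap) and 1 lower (Tbrg4). Lrpprc, which with Slirp binds and stabilizes mitochondrial mRNAs, had 31.3 ± 1.16 and 32.3 ± 6.21 FPKM (SD, n = 3 each) in control and flow cells. Slirp had 154.5, 184.3 and 176.6 FPKM in controls and 297.4, 250.4 and 167.5 FPKM in flow cells, with flow 3 among the controls. Mtpap, the polymerase that adds poly(A) tails to mitochondrial mRNAs, had 12.29, 11.85 and 11.90 FPKM in controls and 17.01, 17.07 and 13.01 FPKM in flow cells. Tbrg4, an RNA-binding FASTK family protein, had 69.3, 68.1 and 59.8 FPKM in controls and 42.8, 42.2 and 57.0 FPKM in flow cells. Neither Mtpap (log2 difference 0.35, SE 0.13) nor Tbrg4 (-0.48, SE 0.14) passed the test, both with an adjusted p of 0.559, although neither overlapped. Of the 23 genes, 1 had no overlap with flow higher and 1 with flow lower, against 7.12% and 8.0% of all genes.

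Genes that maintain mitochondrial DNA numbered 14, with a median of -0.02 (0.05 after GC correction) and an unadjusted p under 0.05 for 2, both higher. Rrm2b, a ribonucleotide reductase subunit that supplies nucleotides outside S phase, had 6.87, 8.59 and 6.16 FPKM in controls and 14.0, 17.3 and 12.7 FPKM in flow cells. All 3 flow values were clear of the controls, with a log2 difference of 0.94 (SE 0.17, unadjusted p = 0.00115, adjusted p = 0.559). Ssbp1, the single-strand binding protein, had 50.2 ± 0.888 and 64.3 ± 8.90 FPKM (SD, n = 3 each), also without overlap. Of the 14 genes, 2 had no overlap with flow higher and 1 with flow lower, against 7.12% and 8.0% of all genes. The 10 tested biogenesis regulators had a median of 0.01 (0.09 after GC correction), with 1 higher (Gabpa) at an unadjusted p under 0.05. Gabpa, a factor for nuclear genes of the respiratory chain, had 42.7, 36.7 and 40.7 FPKM in controls and 59.4, 56.4 and 42.6 FPKM in flow cells, and Ppargc1a, their best known coactivator, did not exceed 0.893 FPKM and failed the filter.

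Among translation genes, the 76 mitochondrial ribosomal proteins had a median of 0.03 (0.05 after GC correction). Their positive differences numbered 41, and 3 were higher at an unadjusted p under 0.05. Of these proteins, 8 had no overlap with flow higher and 2 with flow lower, against 7.12% and 8.0% of all genes. Mrpl33 was among the former, with 59.0, 61.3 and 53.0 FPKM in controls and 93.4, 100.3 and 63.6 FPKM in flow cells. The 22 aminoacyl-tRNA synthetase genes, which charge the tRNAs, had a median of -0.05 (-0.08 after GC correction). Positive differences numbered 9, and 1 gene was lower (Lars2) at an unadjusted p under 0.05. Lars2, the enzyme for leucine, had 455.6, 287.7 and 212.9 FPKM in controls and 144.1, 196.8 and 143.3 FPKM in flow cells, without overlap (log2 difference -0.92, SE 0.29, adjusted p = 0.559). Among the 22 synthetase genes, 3 had no overlap with flow lower and 1 with flow higher, against 8.0% and 7.12% of all genes.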

How the data were processed

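RNA of 6 MLO-Y4 libraries was prepared with a NEXTflex rapid RNA kit and read in single-end runs of 50 cycles on a HiSeq 2500, per the labels' protocols. The tools listed in the submitters' processing notes are Cufflinks 2.2.1, TopHat2 2.0.9 and CASAVA 1.8.2, with build mm10. Annotation, counting settings and strand use were not given in the sources used here.

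The authors deposited 2 tables of FPKM. In the tested one (39174 rows) all 6 columns match a library title. In the other, 2 flow columns match no title and were used as members of the flow group only, and 22 repeated gene identifiers were reduced to the row with the higher mean. There are no counts, and no count model was used. Depth came from the spacing of low FPKM values in single-transcript genes over 800 nt, with 200 nt subtracted from the length. The check on simulated data used the same 200 nt, so it could not test that value. An exact 0 can be a failed estimate and is called listed at 0.

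Genes that averaged 1 FPKM or more were tested with limma 3.58.1 in R 4.3.3 on log2(FPKM + 1) with a variance trend, two-sided, with Benjamini-Hochberg adjustment over 11957 genes and a threshold of 0.05. The fit was tested on simulated data. Folds on this scale understate the change of low genes. Shares and ratios were compared by two-sided exact permutation over libraries. Adjusted p-values measure the spread between 3 cultures a group. Positions, lengths, GC content (99% of tested genes) and sequences came from GENCODE M21. Nuclear copies were found with blastn 2.17.0 at 95% identity or more over at least 50% of the copy.

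Every mt- row is named. Values by library are given for the mRNAs, the rRNAs and some tRNAs, and the other tRNAs enter by counts only. From each nuclear list, named genes were drawn from the 3 with the smallest unadjusted p, with Polrmt, Tfam, Tfb2m, Lrpprc, Slirp and Ppargc1a always named. The members and lists were chosen with earlier results of these data known. Alternatives covered pseudocount, filter, scaling, GC content, pairing, left-out libraries, variance trend and the other table.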

Additional observations from a re-analysis of the deposited data

How the results depend on the processing

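No alternative called any of the 14 mRNAs and rRNAs that passed the filter. The adjusted p of mt-Nd3 ran from 0.0739 (without flow 3) to 0.936 over 16 alternatives and its log2 difference from 0.49 to 1.01. With GC correction the medians were -0.02 (mRNAs) and 0.10 (rRNAs), and the differences below 0 were mt-Nd1 -0.0064, mt-Co1 -0.05, mt-Co2 -0.01, mt-Atp8 -0.02, mt-Atp6 -0.04, mt-Nd5 -0.04, mt-Nd6 -0.08 and mt-Cytb -0.12. Without flow 1 and flow 2 together the medians were -0.10 and -0.41, and the values below 0 were mt-Co1 -0.29, mt-Co2 -0.23, mt-Atp8 -0.04, mt-Atp6 -0.08, mt-Nd4 -0.13, mt-Nd5 -0.26, mt-Nd6 -0.20, mt-Cytb -0.19, mt-Rnr1 -0.68 and mt-Rnr2 -0.14. The flow group then held 1 library, assumed to vary like the others.

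With each library left out in turn, the mRNA median ran from 0.03 (without flow 1) to 0.49 and the rRNA median from 0.12 (without flow 1) to 0.82 (without flow 3). The single genes that changed sign ran from -0.0023 to 0.51 for mt-Nd1, -0.14 to 0.42 for mt-Co1, -0.08 to 0.47 for mt-Co2, -0.0059 to 0.48 for mt-Nd5, -0.16 to 0.35 for mt-Cytb and -0.0055 to 0.90 for mt-Rnr1, and the lowest value came without flow 1, for mt-Rnr1 without control 3. Without flow 1, mt-Nd4 was at 0.02, mt-Atp6 and mt-Nd6 at 0.04, mt-Rnr1 at 0.06, mt-Atp8 at 0.13, mt-Nd2 at 0.15, mt-Rnr2 at 0.19, mt-Co3 at 0.20 and mt-Nd3 at 0.68. mt-Co1, mt-Nd5 and mt-Cytb were also below 0 without control 3, at -0.07, -0.0042 and -0.10. The difference in mRNA share ran from 0.25 (without flow 1) to 2.14 percentage points around 1.35, and that of the mt-Rnr2 to mt-Rnr1 ratio from -0.04 (without control 2 or without flow 3) to 0.04 around 0.0061. Genes called over the whole table numbered 2, and 4 with a pseudocount of 0.1, 4 without a filter, 9 to 24 with a library left out and 75 without flow 1 and flow 2. tRNAs above 0 in all libraries numbered 9, and 4 in the other table, an alternative added after seeing the data, as was leaving out mt-Atp8. Of the tRNAs lost there, mt-Tq, mt-Ta, mt-Tc, mt-Th and mt-Tp were listed at 0 only in control 1, the library of 690000 reads. The cause of these shifts was not tested.

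With adjacent library titles as pairs, the fit with this replicate block called 1 gene in place of 2 and gave mt-Nd3 an adjusted p of 0.423. The deviations of adjacent titles correlated at 0.043, 0.023 and 0.064, and each flow library correlated best with the control of its adjacent title. Control 2 in turn correlated best with flow 1 (0.027). The main fit was set without pairs. These values are small and the labels name no pairs, but pairing is not excluded. Statements above on overlap between groups compare all cultures without regard to pairs. Flow was above the control of the adjacent title for 12, 11 and 12 of the 12 mRNAs (pairs 1 to 3, mt-Cytb being the exception) and for both rRNAs in each pair, against 48.6%, 48.0% and 48.4% of all genes tested. It was so in all 3 pairs for 11 mRNAs and 18.9% of all genes, a count added after seeing the data. Depth limits the tRNAs, where 1 step was 114.8 to 444.4 FPKM at a length of 69 nt.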
